A study of Mus musculus with 4 samples.

Results

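Integrin-linked kinase (Ilk) and its partners in the Ilk-PINCH-parvin complex were examined in primary mouse fibroblasts, together with Taf10, a transcription factor subunit whose gene overlaps Ilk on the other strand. The set holds 7 of the 55536 genes counted: Ilk, the PINCH genes Lims1 and Lims2, the parvin genes Parva and Parvb, the Ras suppressor gene Rsu1, and Taf10. They were found by pairing the Ensembl gene IDs of both count tables with mouse gene symbols, and all 7 had reads in whole-cell RNA. The set was chosen by measured values, since Ilk was selected on being nearly absent from both pulldown libraries and on overlapping Taf10. Its pulldown-to-whole-cell ratio is therefore a description and supports nothing by itself. The 6 other genes follow from their place in the complex or beside Ilk.

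The fibroblasts were grown from ear clippings of C57BL/6 mice and carried either AF357425 overexpression (AF357425-High) or AF357425 inhibition (AF357425-Low), as the sample characteristics put it. AF357425 is a snoRNA, a small nucleolar RNA, of the C/D box class from the imprinted Dlk1-Dio3 region. The treatment protocol instead names gapmers, which are antisense oligonucleotides, directed at AF357425 or scrambled as a control, so which transfection stands behind each state is not settled by the labels. All cells were first held for 48 h with KN93, a CaMKII inhibitor used here to synchronize the cell cycle, and the transfection lasted 24 h. Serum was listed at 10% for every group. Each state has a library of RNA pulled down with an antibody against fibrillarin, the methyltransferase that C/D box snoRNAs guide, and a library of whole-cell RNA. With 4 libraries and 1 in each group, no difference here has a replicate check, and no test between groups was run. The 95% intervals cover counting error only and take each read as independent. Reads copied by PCR and not marked by molecular identifiers may come from the same molecule, so the intervals can be too narrow.

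Ilk is a pseudokinase of focal adhesions that links the cytoplasmic tail of beta integrins to actin. Its ankyrin repeats bind the LIM-domain adapters PINCH1 (Lims1) or PINCH2 (Lims2), and its kinase-like domain binds alpha-parvin (Parva) or beta-parvin (Parvb), which carry the complex to actin filaments. Rsu1 attaches to PINCH1. In fibroblasts the complex is known for adhesion strengthening, spreading and matrix assembly. Taf10, in contrast, is a histone-fold subunit of the general transcription factor TFIID and of the coactivator SAGA.

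The Ilk gene (ENSMUSG00000030890) lay on the plus strand of chromosome 7, 105736590 to 105742925 in the RefSeq annotation of GRCm38.p6, a span of 6336 bp including introns. Its last 32 bp, 105742894 to 105742925, were shared with the 3' end of Taf10 (ENSMUSG00000043866, minus strand, 105742894 to 105744375). That is 0.505% of the Ilk span and 2.16% of the Taf10 span. A longer overlap lay at the other end, where 796 bp from 105736590 to 105737385, or 12.6% of the Ilk span, were shared with the widest annotated span of Rrp8 (ENSMUSG00000030888, minus strand, 105731730 to 105737385). Rrp8 is known in yeast and human as a nucleolar methyltransferase that modifies ribosomal RNA. Ilk and Rrp8 thus start head to head, and Ilk and Taf10 end tail to tail. The spans hold no exon borders, so it is not known how much of these overlaps is exonic.

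The start regions of Ilk and Rrp8 are printed because the genes leave the same stretch of DNA in opposite directions while their reads differed between the kinds of library, as described below. Each window runs from 250 bases before to 50 bases after the annotated start, 5' to 3' on the gene's own strand (RefSeq, GRCm38.p6). Ilk is read from chr7:105736340-105736639 on the plus strand with its start at 105736590, and Rrp8 from chr7:105736535-105736834 on the minus strand with its start at 105736584. Capitals mark the 105 bases that both windows hold, 105736535 to 105736639, once on each strand.
Ilk: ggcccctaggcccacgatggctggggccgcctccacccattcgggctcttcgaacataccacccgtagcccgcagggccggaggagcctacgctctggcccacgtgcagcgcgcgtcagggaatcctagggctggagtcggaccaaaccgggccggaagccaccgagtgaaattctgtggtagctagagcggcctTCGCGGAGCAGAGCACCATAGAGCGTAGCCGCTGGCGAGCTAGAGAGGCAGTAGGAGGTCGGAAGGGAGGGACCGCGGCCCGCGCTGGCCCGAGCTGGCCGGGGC
Rrp8: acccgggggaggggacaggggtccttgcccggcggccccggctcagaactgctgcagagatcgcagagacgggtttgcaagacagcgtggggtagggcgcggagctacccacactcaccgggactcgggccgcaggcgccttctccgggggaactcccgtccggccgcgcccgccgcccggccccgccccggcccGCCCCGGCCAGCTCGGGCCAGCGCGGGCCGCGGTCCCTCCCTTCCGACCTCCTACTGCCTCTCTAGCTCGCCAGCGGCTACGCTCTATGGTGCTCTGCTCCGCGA
The 2 starts were 6 bp apart, and from them the genes run away from each other with no shared base. The annotation also lists a start of Ilk at 105736725 and a start of Rrp8 at 105737385, and the overlap of 796 bp rests on that start of Rrp8. Both windows were rich in G and C, at 69.0% for Ilk and 74.7% for Rrp8, against a median of 52.7% over 32851 promoter windows of the same length. On either strand, TATAAA was in neither window (13.6% of all windows hold it), and neither was CCAAT (37.4% of all windows). GGGCGG was in the Rrp8 window and not in the Ilk window (35.7% of all windows). The table held a window for 5 of the 7 genes.

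The libraries held 25857770 and 27832061 gene-assigned reads in the AF357425-High and AF357425-Low pulldowns, and 22082565 and 21693030 in the whole-cell libraries. Ribosomal RNAs of the mitochondria (mt-Rnr1, mt-Rnr2) accounted for 63.4% and 59.8% of reads in the pulldowns and for 0.0926% and 0.0583% in whole-cell RNA. Fragments that the counting set aside as ambiguous, because more than a single gene claimed them, made up 9.38% and 8.54% of the pulldown fragments, against 1.05% and 1.09% in whole-cell RNA. All 6 fibroblast markers were detected in each library and summed in the pulldowns to 2110 and 2277 CPM (counts for every 1000000 reads assigned to genes), against 6008 and 6610 CPM in whole-cell RNA. The 3 cartilage markers were detected too, at 96.0 and 118 CPM against 258 and 185 CPM. Markers of 7 other cell types summed to at most 3.70 CPM each, with Krt14, Adgre1, Cpa3 and Ckm at 0 reads in every library. AF357425 itself had 0 reads in all 4 libraries, so the states could not be checked by their target.

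Ilk was nearly absent from the pulldowns. Its reads numbered 2 in the AF357425-High and 0 in the AF357425-Low pulldown, against 4325 and 3924 reads in whole-cell RNA. In CPM these are 0.0773 and 0, against 196 and 181, and a count of 0 allows up to 0.108 CPM (3 reads) in the AF357425-Low pulldown. These counts are what Ilk was selected on. By library totals Ilk was 2532-fold lower in the AF357425-High pulldown than in whole-cell RNA, with a counting interval of 701 to 20916, a log2 ratio of -11.31 (95% interval -14.35 to -9.45). In AF357425-Low it was at least 1678-fold lower, taking the 0 reads as the limit of 3.

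**Figure D1:**
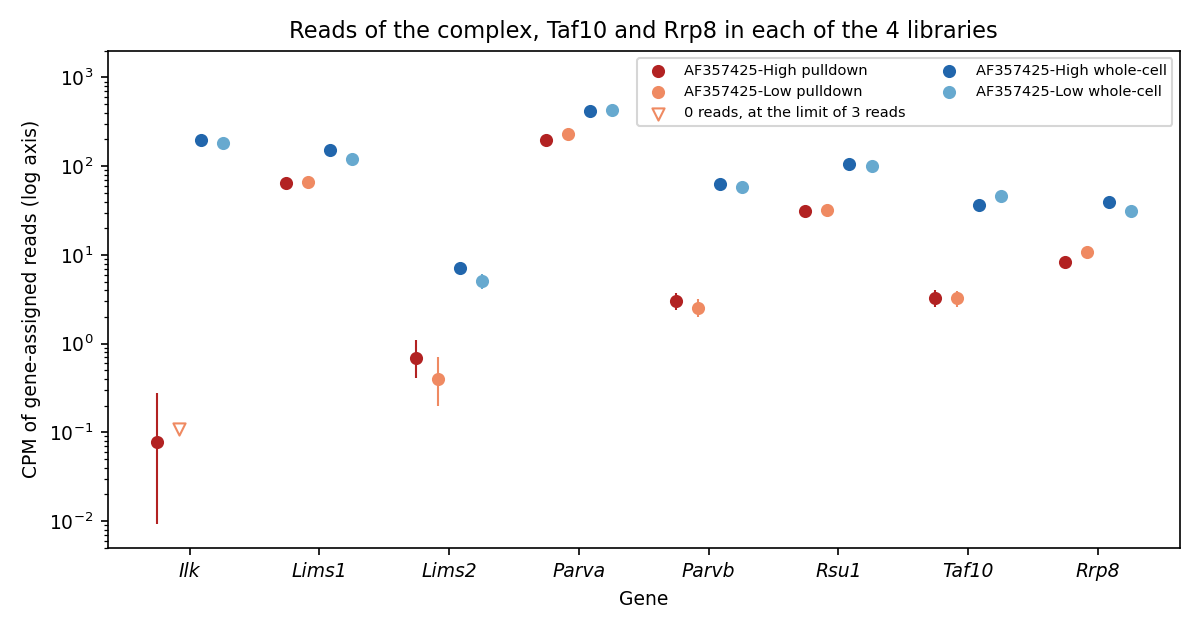
Reads of the 7 genes and of Rrp8 in each library, in CPM on a log axis, with exact 95% counting intervals as bars and the limit of 3 reads as an open triangle where no read was found. Ilk stands at 196 and 181 CPM in whole-cell RNA and at or under 0.108 CPM in the pulldowns, while Parva, Lims1 and Rsu1 keep 31.3 to 228 CPM there.

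By library totals most genes had lower values in the pulldown, so the ratio of Ilk was read against them. A gene was measured where it averaged at least 1 CPM over the 2 libraries compared, and called where its whole interval lay beyond 2-fold. Ilk and Lims2, under 1 CPM in both pulldowns, passed that filter through whole-cell RNA alone, and a gene that passes so has to differ. Of the measured genes, 74.1% were called lower in AF357425-High and 62.4% in AF357425-Low, with medians of -2.15 and -1.75 on the log2 scale. All 7 members were called lower in AF357425-High and 5 of 7 in AF357425-Low. The same 5 were lower in both states, beside 60.6% of all genes. These shares are near the background, and nothing is read from them. With TMM scaling 22.6% and 26.3% of genes were lower, and 3 and 4 of the 7 members, among them Ilk, Taf10 and Parvb in each state. Ilk in AF357425-High was at -9.16 log2 units relative to the median gene.

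Few genes with as many whole-cell reads were as low in the pulldowns. Since Ilk was selected for its low pulldown reads, its place here is a description. Of 929 genes with at least 3924 reads in each whole-cell library, 2 had no more than 2 reads in either pulldown. These were Ilk and the predicted gene Gm42418, which had 0 and 0 reads in the pulldowns against 195658 and 186478 in whole-cell RNA. The median of the 929 genes was 2244 and 2782 pulldown reads. By the upper bound of the interval, 2 genes were lower than Ilk in both states, Gm42418 and the predicted gene Gm26917 (245 and 529 in the pulldowns against 720670 and 715075). Neither has a gene type in the annotation used here, and how reads were assigned to them was not tested. By the ratio itself 195 of 12773 genes were lower than Ilk in AF357425-High, 194 of them with 0 reads in that pulldown.

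**Figure D2:**
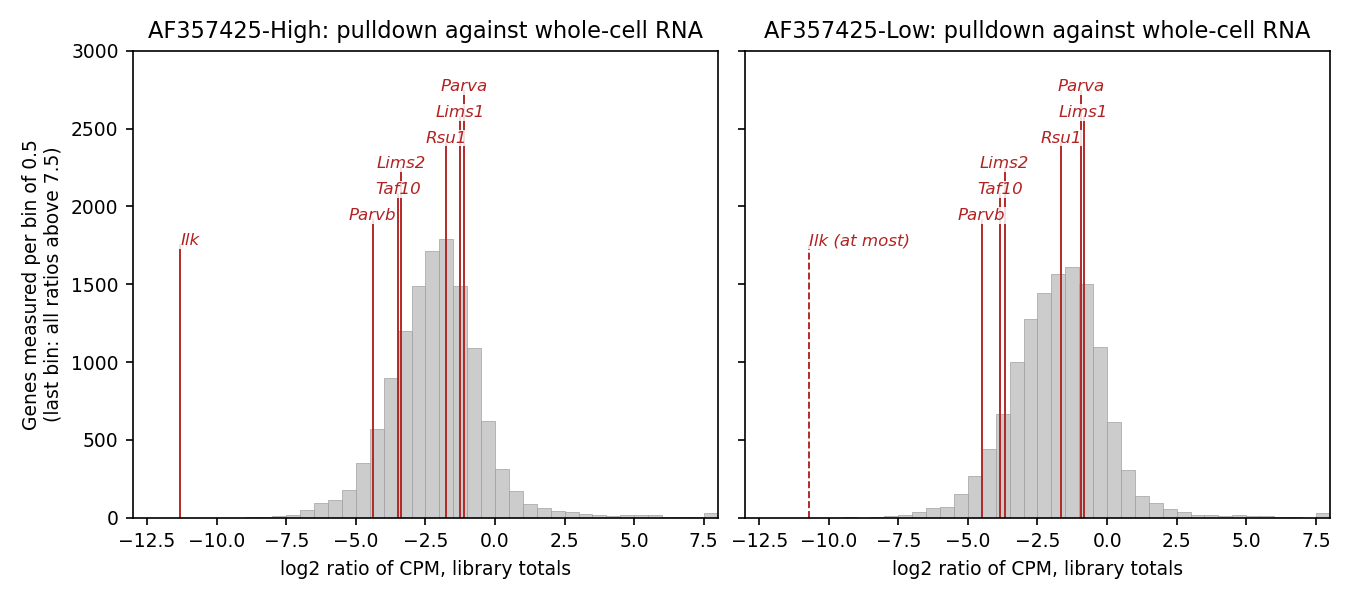
Distribution of the log2 ratio of pulldown over whole-cell CPM for all measured genes (grey bars, 0.5 log2 units wide) in AF357425-High (left) and AF357425-Low (right), with the 7 genes as red lines. Bars leave out 194 and 157 genes with 0 pulldown reads, among them Ilk in AF357425-Low, which is drawn as a dashed line at the limit of 3 reads. Ilk lies left of the bulk of genes, and the 6 others lie within it.

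The genes that share ends with Ilk kept reads in the pulldown. Rrp8 had 215 and 301 reads in the pulldowns, against 875 and 685 in whole-cell RNA. Its log2 ratios were -2.25 (-2.47 to -2.04) in AF357425-High and -1.55 (-1.75 to -1.35) in AF357425-Low, or -0.10 and 0.20 relative to the median gene. Taf10 had 84 and 90 reads in the pulldowns, against 798 and 999 in whole-cell RNA. Its ratios were -3.48 (-3.82 to -3.15) and -3.83 (-4.16 to -3.52), or -1.33 and -2.08 relative to the median gene. Ilk was selected on its own ratio, so its distance from both overlapping genes is a description.

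Of the reads given to Ilk or Taf10, Ilk held 2.33% of AF357425-High pulldown reads (exact 95% interval 0.283 to 8.15) and 0% of AF357425-Low pulldown reads, where 0 of 90 reads allows up to 4.02%, the upper end of that exact interval. In whole-cell RNA it held 84.4% and 79.7%. Because overlapping genes can split or lose reads in counting, the sum was taken as well. Ilk and Taf10 together had 86 and 90 reads in the pulldowns, against 5123 and 4923 in whole-cell RNA, with ratios of -6.12 (-6.45 to -5.82) and -6.13 (-6.45 to -5.83). With Rrp8 added, the sums were 301 and 391 against 5998 and 5608, and the ratios were -4.54 (-4.72 to -4.38) and -4.20 (-4.35 to -4.05). The sums carry the counts that Ilk was selected on, and the sum with Rrp8 was chosen after seeing the data, so both are descriptions. Whether fragments of Ilk were set aside as ambiguous was not tested, since the counts hold no position. The sources used here give neither the annotation nor whether the counting used strand, and either could differ between the kinds of library.

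**Figure D3:**
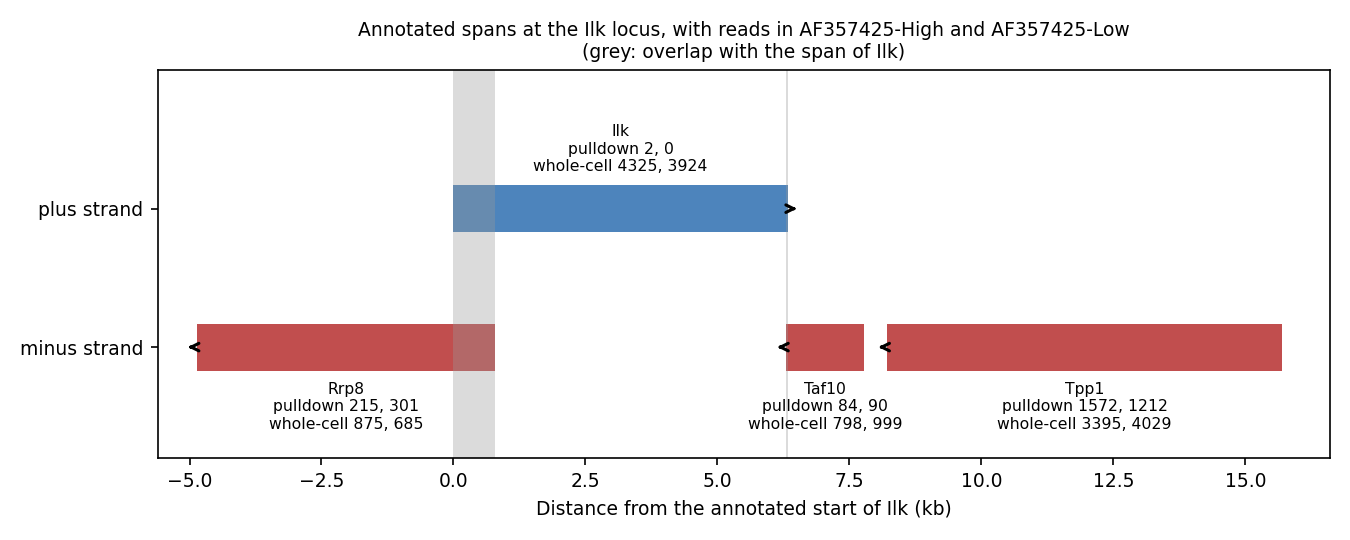
Annotated spans of Rrp8, Ilk, Taf10 and Tpp1 by distance from the annotated start of Ilk in kb, with arrowheads in the direction of transcription and grey bands for the overlaps of 796 and 32 bp. Under or over each gene stand its reads in AF357425-High and AF357425-Low, pulldown first; only Ilk of these 4 genes falls under 10 pulldown reads.

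Further out, the 5 annotated genes on each side were described as well. Of these 10, 4 were not measured: Gm22504, Mrps36-ps2, 9130208D14Rik and Gm15645 had 0 to 3 reads in any library. The other 6, which include Rrp8 described above, were called lower in the pulldown in both states by library totals, beside 60.6% of all genes. With TMM 2 of 6 were lower in each state, beside 22.6% and 26.3% of all genes, and Tpp1 in AF357425-High turned to 0.51. Tpp1, which encodes a lysosomal peptidase and lies 435 bp beyond Taf10, had 1572 and 1212 reads in the pulldowns, against 3395 and 4029 in whole-cell RNA. Mrpl17, a mitochondrial ribosomal protein gene, had 150 and 283 against 789 and 778. Relative to the median gene, Tpp1 was at 0.81 and -0.35 and Mrpl17 at -0.47 and -0.07. Timm10b, of the mitochondrial import machinery, had 2 and 20 against 112 and 97. Dnhd1, a gene with a dynein heavy chain domain, had 19 and 23 against 350 and 218. Dchs1, a large cadherin, had 6 and 2 against 60 and 90. These last 3 had 350 or fewer whole-cell reads and under 1 CPM in the pulldowns, and passed the filter through whole-cell RNA alone.

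Among 440 pairs of protein-coding genes that overlap on opposite strands and were both measured, the absolute difference of the 2 log2 ratios had a median of 1.13 in AF357425-High and 0.99 in AF357425-Low. Rrp8 and Ilk differed most, by 9.05 and 9.17. Elk4, an ETS transcription factor, and Mfsd4a, a membrane transporter, came next with 8.05 in each state, and there the gap came from Mfsd4a, which was 6.30 and 7.12 log2 units higher in the pulldown. Ilk and Taf10 followed, with 7.83 and 6.88. The AF357425-Low values of Ilk use the limit of 3 reads. Ilk was selected on its low pulldown reads and on an overlap, so the large differences of its pairs follow from that choice.

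Classes of genes by overlap had medians close to each other. Genes with under 50% of their span covered by genes of the other strand, the class of Ilk, Taf10, Rrp8 and Parvb, had median ratios of -2.26 over 1820 genes in AF357425-High and -1.88 over 1824 genes in AF357425-Low. Genes that overlap no gene, such as Rsu1, had -2.15 over 4700 genes and -1.74 over 4709 genes. The share of genes under -5 was 4.78% and 2.69% in the first class, against 3.28% and 1.95% in the second. In genes covered by at least 50%, it was 9.05% of 199 and 4.55% of 198, with medians of -2.23 and -1.87. The length of the span moved with the ratio: over 11101 and 11133 genes with a listed span, Spearman's rho was 0.244 and 0.275 across genes, which are not independent. Spans under 10 kb had medians of -2.75 and -2.47, and spans over 100 kb had -1.76 and -1.27. Ilk, Taf10 and Rrp8 are in the shortest class, and Lims1, Parva and Rsu1 in the longest. Lims2 and Parvb span 36.3 and 83.6 kb, in the class of 30 to 100 kb, with medians of -1.83 and -1.34. Their own ratios, given below, lay under those medians, while Rrp8 lay near the median of all genes. The part of span length in the ratios of these genes was not tested.

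The PINCH genes differed from each other. Lims1 (chromosome 10, 58323342 to 58424691), which encodes the widely used adapter PINCH1, had 1654 and 1865 reads in the pulldowns, against 3393 and 2611 in whole-cell RNA. Its log2 ratios by library totals were -1.26 (-1.35 to -1.18) and -0.84 (-0.93 to -0.76), and they turned positive with other scalings, to 0.58 in each state with TMM. Relative to the median gene, which does not depend on the scaling, Lims1 was 0.89 and 0.90 log2 units higher, and 73.8% and 72.7% of genes had a lower ratio. Lims2 (chromosome 18, 31922293 to 31958620), which encodes PINCH2, had 18 and 11 reads in the pulldowns, against 158 and 110 in whole-cell RNA. Its ratios were -3.36 (-4.15 to -2.65) and -3.68 (-4.73 to -2.79), or -1.21 and -1.93 relative to the median gene. Lims2 passed the filter through whole-cell RNA alone, as said above, so its low ratio and its distance from Lims1 are descriptions. Lims2 made up 1.08% and 0.586% of the reads of both genes in the pulldowns, against 4.45% and 4.04% in whole-cell RNA. The log2 ratio of Lims2 minus that of Lims1 was -2.10 (-2.81 to -1.39) in AF357425-High and -2.84 (-3.73 to -1.94) in AF357425-Low, a difference within the same libraries that no scaling moves.

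The parvins split in the same direction. Parva (chromosome 7, 112427706 to 112591688), the alpha-parvin gene, had 5089 and 6334 reads in the pulldowns, against 9348 and 9395 in whole-cell RNA. Its ratios by library totals were -1.10 (-1.15 to -1.06) and -0.93 (-0.97 to -0.88), with TMM 0.74 and 0.50, and relative to the median gene it was 1.04 and 0.82 higher. Parvb (chromosome 15, 84232043 to 84315689), the beta-parvin gene, had 78 and 71 reads in the pulldowns, against 1401 and 1261 in whole-cell RNA. Its ratios were -4.39 (-4.74 to -4.07) and -4.51 (-4.88 to -4.16), or -2.24 and -2.76 relative to the median gene. By this ratio 8.83% and 6.05% of genes were lower than Parvb. Its share of the reads of both parvins was 1.51% and 1.11% in the pulldowns, against 13.0% and 11.8% in whole-cell RNA. Parvb was 9.78-fold (7.76 to 12.3) lower than Parva by this ratio in AF357425-High and 12.0-fold (9.41 to 15.2) lower in AF357425-Low.

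Rsu1 (chromosome 2, 13076967 to 13271438), the PINCH1 partner, had 810 and 899 reads in the pulldowns, against 2324 and 2182 in whole-cell RNA. Its ratios by library totals were -1.75 (-1.87 to -1.63) and -1.64 (-1.75 to -1.53), while with TMM they were 0.10 in AF357425-High and -0.21 in AF357425-Low. Relative to the median gene it was 0.40 (0.28 to 0.52) and 0.11 (-0.01 to 0.22) higher. In order of the ratio, Parva, Lims1 and Rsu1 lay over the median gene in both states, and Lims2, Taf10, Parvb and Ilk lay under it. The counting intervals of Lims2 overlapped those of Taf10 and of Parvb in each state, and those of Parva and Lims1 overlapped in AF357425-Low. No interval was computed for the differences between these genes, so their order there was not tested.

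**Figure D4:**
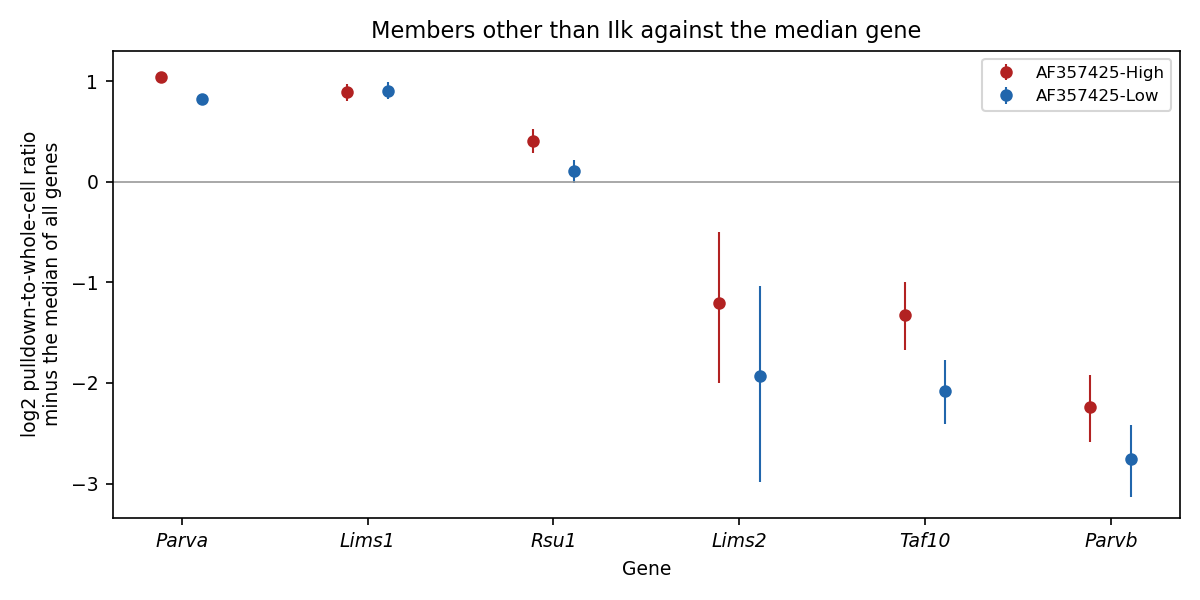
The log2 ratio of pulldown over whole-cell reads minus the median of all measured genes, for the 6 genes other than Ilk in AF357425-High (left point) and AF357425-Low (right point), with 95% counting intervals as bars. Parva, Lims1 and Rsu1 sit at 0.11 to 1.04, and Lims2, Taf10 and Parvb at -1.21 to -2.76.

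Between the states, whole-cell RNA showed small differences in the complex. None of the 7 genes was called, against 0.244% of all measured genes (33 of 13519). Values are log2 ratios of AF357425-High over AF357425-Low after TMM scaling, where the median gene was at -0.01. Ilk was at 0.05 (-0.01 to 0.11), Rsu1 at 0.00 (-0.08 to 0.09) and Parvb at 0.06 (-0.05 to 0.17), with intervals that hold 0. Lims1 was at 0.29 (0.21 to 0.36), at 154 CPM in AF357425-High against 120 CPM in AF357425-Low. Taf10 was at -0.41 (-0.55 to -0.28), at 36.1 CPM against 46.1 CPM, and 8.34% of genes had a lower value. Rrp8, at the other end of Ilk, was at 0.26 (0.12 to 0.41). Lims2 was at 0.43 (0.07 to 0.80) and Parva at -0.10 (-0.14 to -0.06). The intervals of these last 5 genes leave out 0, and none reaches 2-fold. In bulk RNA, fewer cells of a type and less RNA per cell cannot be told apart. The cartilage markers were higher in the AF357425-High whole-cell library by the values above, and their part in these differences was not tested.

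In the pulldown, 5 of the 7 genes were measured and none was called, against 6.32% of all measured genes (679 of 10736). Parvb was at 0.54 (0.05 to 1.02), Taf10 at 0.30 (-0.15 to 0.75), Rsu1 at 0.25 (0.11 to 0.39), Lims1 at 0.23 (0.13 to 0.32) and Parva at 0.09 (0.03 to 0.14) after TMM scaling. By library totals, which move the median of all genes to -0.31, Lims1 was at -0.07, Parva at -0.21 and Rsu1 at -0.04. By the same totals Taf10 fell to 0.01 and Parvb to 0.24. Lims2, under the filter with 18 and 11 reads, was at 1.11 (-0.05 to 2.34), and Ilk with 2 and 0 reads has no ratio.

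**Figure D5:**
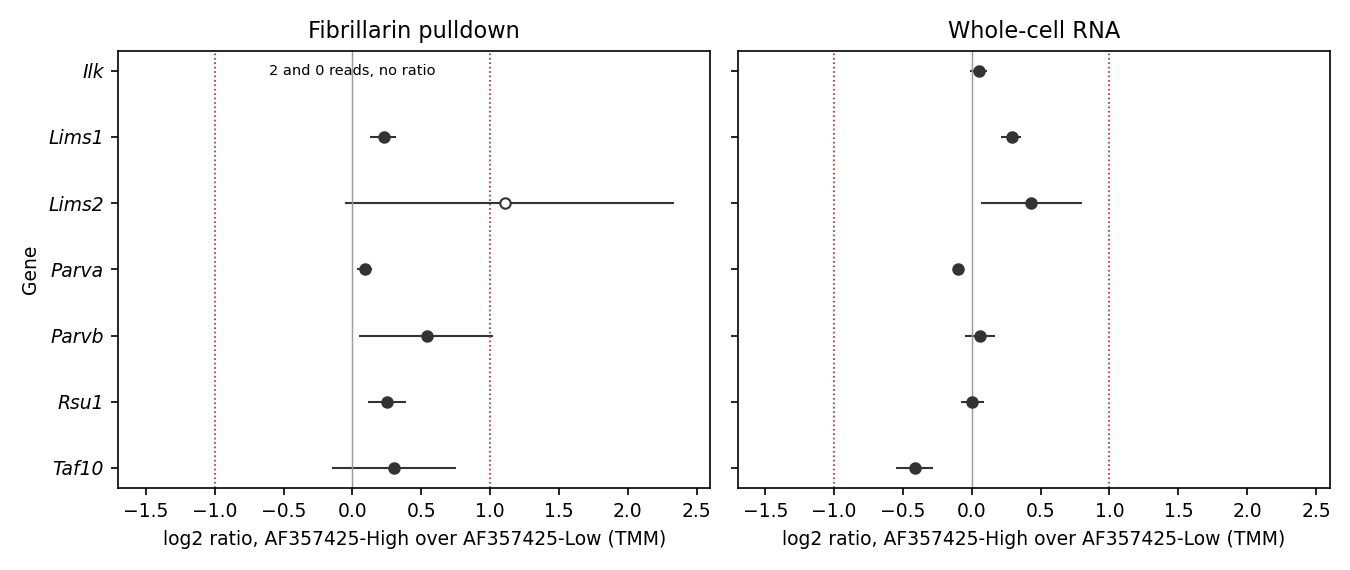
log2 ratio of AF357425-High over AF357425-Low in the fibrillarin pulldown (left) and in whole-cell RNA (right) after TMM scaling, with 95% counting intervals as bars, dotted lines at 2-fold and an open point for Lims2, which is under the filter in the pulldown. No interval lies wholly beyond a dotted line, and Taf10 is at 0.30 in the pulldown and -0.41 in whole-cell RNA.

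How far the ratio of pulldown to whole-cell reads changed between the states, AF357425-High minus AF357425-Low, could be computed for 6 genes, each with 10 or more reads per library, after TMM scaling within each kind of library. None was called, against 4.31% of all genes so compared (490 of 11356). Taf10 was at 0.72 (0.27 to 1.17), Rsu1 at 0.25 (0.09 to 0.41) and Parva at 0.18 (0.12 to 0.25). For Lims2 the value was 0.68 (-0.46 to 1.82), for Parvb 0.48 (0.00 to 0.95) and for Lims1 -0.06 (-0.18 to 0.06). Tpp1, the neighbour beyond Taf10, had a larger value of 1.11 (0.99 to 1.24), and Rrp8 had -0.35 (-0.64 to -0.06). The genes around Ilk thus differed in sign. By library totals, the scaling of the ratios given above, Lims1 was at -0.42, Parva at -0.18 and Rsu1 at -0.11. By the same totals Taf10 fell to 0.36, Lims2 to 0.32 and Parvb to 0.12.

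The adhesion partners of the complex were taken from a list of 39 genes of integrins, talins, kindlins, Kank proteins, focal adhesion adapters and kinases. Of 33 measured in whole-cell RNA none was called between the states, beside 0.244% of all genes, and their median was -0.02. Fermt2, which encodes the kindlin that recruits the complex to integrins, was the highest at 0.38 (0.31 to 0.44), and Tns1, a tensin, the lowest at -0.45 (-0.49 to -0.41). In the pulldown none of 34 was called between the states, beside 6.32% of all genes, with a median of 0.03. There the integrin gene Itgb3 and the kinase gene Akt2 were highest at 0.79 each, and Kank4 and Kank1 lowest at -0.56 and -0.51. Against whole-cell RNA, 32 of 33 were lower in AF357425-High and 26 of 33 in AF357425-Low by library totals, beside 74.1% and 62.4% of all genes. With TMM 9 and 12 were, beside 22.6% and 26.3% of all genes. By library totals their medians were -2.43 and -2.32, beside -2.15 and -1.75 for all genes. The kinase genes Src, at -3.98 and -4.13, and Akt1, at -3.61 and -3.67, were the lowest of them. Gsk3b, a kinase, at -1.15 and -0.51, and Arhgef6, which encodes the parvin-binding exchange factor alpha-PIX, at -0.81 and -0.75, were the highest. Src, the lowest, had 155 and 148 reads in the pulldowns, against 2095 and 2014 in whole-cell RNA. None of these partners came near the value of Ilk, but Ilk was selected on that value, so the distance is a description.

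The subunits that work with Taf10 were described in the same way. Of 15 TFIID genes 13 were measured, and 6 were lower in the pulldown than in whole-cell RNA in AF357425-High and 4 in AF357425-Low by library totals, beside 74.1% and 62.4% of all genes. With TMM 0 were lower in either state, beside 22.6% and 26.3% of all genes. Their medians were -1.28 and -0.76, over the medians of all genes, whereas Taf10 was under them. None was called between the states in either kind of library, and Taf7 was the highest in whole-cell RNA at 0.62 (0.29 to 0.95). In the pulldown Taf12 and Taf8 were highest at 0.93 and 0.92, and Taf13 and Taf4 lowest at -0.55 and -0.54. Of 16 SAGA genes, 11 were lower in the pulldown in each state by library totals, near those shares, with medians of -1.90 and -1.81. With TMM 3 were lower in AF357425-High and 2 in AF357425-Low, beside 22.6% and 26.3% of all genes. Tada1, an adapter subunit, was the lowest by library totals at -4.77 and -4.31. In the pulldown 3 of the 16 SAGA genes were called between the states, beside 6.32% of all genes: Supt3 at 1.83 (1.38 to 2.30; 151 against 56 reads) and Taf6l at 1.96 (1.23 to 2.75; 62 against 21 reads) were higher in AF357425-High, and Sgf29 at -1.97 (-3.05 to -1.03; 11 against 57 reads) was lower. Taf6l was under 1 CPM in the AF357425-Low pulldown, and Sgf29 was under it in the AF357425-High pulldown. Both passed the filter through the pulldown of the other state alone, so nothing is read from this share. In whole-cell RNA none of the 16 was called. The change of the ratio was called for Taf6l at 2.05 (1.28 to 2.81) and Supt3 at 1.97 (1.46 to 2.48), beside the 4.31% of all genes given above.

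The 5 genes most like Ilk over the 4 libraries were found by Euclidean distance in log2(CPM + 0.1) among 12795 genes. Nr2f6, an orphan nuclear receptor, was nearest at a distance of 3.61, with 1 and 8 reads in the pulldowns against 980 and 902 in whole-cell RNA. Gnpnat1, an enzyme of amino sugar synthesis, had 2 and 2 against 727 and 633. Pcdhga10, a clustered protocadherin, had 0 and 0 against 683 and 643. Bckdha, a subunit of the branched-chain ketoacid dehydrogenase, had 0 and 1 against 684 and 652, and Fosl1, the AP-1 factor Fra-1, had 10 and 13 against 1244 and 1159. All 5 were near 0 in both pulldowns, as Ilk was, but from fewer whole-cell reads than Ilk. They were picked by these same values, so their low pulldown reads follow from the choice. Each was under 1 CPM in both pulldowns and passed the filter through whole-cell RNA alone. Nr2f6 and Bckdha overlap no annotated gene, and for the other 3 the strand or position needed for that class is not listed.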

How the data were processed

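Counts of fragments for each gene were deposited by the authors in 2 tables, whole-cell and pulldown. The submitters' processing notes list cutadapt 2.4, STAR 2.6.0c, HTSeq 0.9.1, StringTie 1.3.4 and GRCm38. Of all fragments 50.0% to 56.2% were assigned to genes, and the 5 HTSeq summary lines that hold the rest were left out of totals and ratios. The 7 genes and all lists were chosen with earlier results of these data known. Symbols were paired with 55450 of 55536 IDs. Positions and promoter windows came from RefSeq (GRCm38.p6), with no exons.

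Of 5 comparisons, the 2 between states used TMM scaling (edgeR 4.0.16, R 4.3.3), and the 2 between pulldown and whole-cell RNA used library totals, because TMM rests on most genes being unchanged. Genes needed a mean of at least 1 CPM. Intervals (95%) were exact (Clopper-Pearson, scipy 1.17.1), and for the change of the ratio, with at least 10 reads in each library, a normal approximation. A call needed the whole interval beyond 2-fold. No p-value was computed, as each group has 1 library. The computation was tested on simulated data. Named were all 7 genes, all neighbours, the called and the 2 highest and 2 lowest genes of each list, the 5 genes nearest to Ilk and the 3 most different opposite-strand pairs, and Gm42418 and Gm26917 were singled out after their values were seen. Other scalings, filters and lines were tried, with median-of-ratios size factors from DESeq2 1.42.0.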

Additional observations from a re-analysis of the deposited data

How the results depend on the processing

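No paired analysis was possible because each group has 1 library. Counts of called genes moved by over 1.5 times under these settings. Between states in whole-cell RNA, 33 genes were called, against 15 with a mean of at least 5 CPM, 64 with no filter and 136 at a 1.5-fold line. In the pulldown 679 were called between states, against 302, 1688 and 1671. For the change of the ratio it was 490, against 257 with at least 50 reads, 915 with at least 1 read and 1469 at 1.5-fold. For pulldown against whole-cell RNA, 9767 genes were called in AF357425-High, against 4566 with TMM, 4551 with median-of-ratios factors and 5214 without mt-Rnr1 and mt-Rnr2. In AF357425-Low it was 8295, against 5096, 5078 and 5159. These scalings moved the median of all genes, with TMM to -0.31 and -0.32. Under the same 3 scalings Ilk was at -9.46, -9.40 and -9.86 in AF357425-High and, at the limit of 3 reads, at -9.29, -9.24 and -9.40 in AF357425-Low, and its call held. Ilk and Taf10 summed were at -4.28, -4.22 and -4.67 in AF357425-High and -4.71, -4.66 and -4.82 in AF357425-Low, and with Rrp8 added, an alternative chosen after seeing the data, at -4.54 and -4.20. The direction turned in AF357425-High for Lims1 (0.58, 0.64 and 0.19), Parva (0.74, 0.80 and 0.35) and, with TMM and median-of-ratios factors, Rsu1 (0.10 and 0.15). In AF357425-Low it turned as well for Lims1 (0.58, 0.63 and 0.47) and Parva (0.50, 0.55 and 0.39). Rsu1 was also no longer called in AF357425-Low, nor Lims2 in AF357425-High at -1.52 with TMM and -1.46 with median-of-ratios factors. TMM counts of list genes and neighbours were also chosen after seeing the data. In all, 14 calls changed among 90 recomputed values of the 7 genes. By scaling, the calls between states in the pulldown split into 368 higher and 311 lower with TMM, and 238 and 608 with library totals. Depth limits Ilk and Lims2 in the pulldowns, where 18 reads or fewer leave wide intervals.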
